A study of Homo sapiens with 9 samples.

Results

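The genes described here are 40 protein-coding genes that copy DNA or supply its building blocks. They were chosen by symbol: the licensing genes ORC1, ORC6, CDC6 and CDT1, the MCM2 to MCM7 helicase ring, MCM10, CDC45 and GINS1 to GINS4, the sliding clamp PCNA and its loader RFC1 to RFC5, the polymerase and primase subunits POLA1, POLA2, PRIM1, PRIM2, POLD1, POLD2, POLD3, POLE and POLE2, the flap nuclease FEN1, the ligase LIG1, the single-strand binding subunits RPA1 to RPA3, and RRM1, RRM2, TYMS and TK1 of deoxynucleotide supply. Each symbol matched 1 Ensembl identifier among the 63677 of the count files, and all 40 passed the filter that kept 18237 genes, a level of 1 CPM (count scaled to library size) or more in 2 or more of the 9 libraries. The cells were HuH-7, an established human hepatocellular carcinoma line, and every culture was sequenced as 1 library of total RNA depleted of ribosomal RNA. The conditions were untreated control, acetaminophen at 10 mM, exosomes prepared from 1 ml of serum, acetaminophen at 10 mM with these exosomes, caffeine at 2 mM, acetaminophen at 10 mM with caffeine at 2 mM, arsenic alone at either 5 or 15 µM, and 5 µM each of arsenic and copper together. The labels give the 1 ml of serum per set number of cells, not per culture. Exposure times, the arsenic and copper compounds and the serum donors are unstated in the labels.

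Before a cell copies its genome, ORC, CDC6 and CDT1 load the MCM ring onto origins, a step called licensing. At the start of S phase CDC45 and the GINS complex turn the ring into the active helicase, with MCM10 helping to start it. PCNA, placed by RFC, tethers DNA polymerases delta and epsilon behind the polymerase alpha and primase complex, which makes the primers, and FEN1 and LIG1 process and join the lagging-strand fragments. Ribonucleotide reductase (RRM1 with RRM2), thymidylate synthase (TYMS) and thymidine kinase (TK1) make the deoxynucleotides. Most of these genes are transcribed under E2F control around the G1 to S transition, and in normal adult liver they are largely silent outside regeneration, while hepatoma lines in culture express them steadily.

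The start regions of PCNA, MCM7 and MCM3 are shown because these 3 genes lay farthest below the control at arsenic 15 µM. That of RRM1 is shown because it stood higher at arsenic 5 µM than in the control. The sequences are the 250 bases before an annotated start, from RefSeq on GRCh38.p14, written 5′ to 3′ on the strand of the gene. Capitals mark the words TTTCCCGC, TTTCGCGC, TTTGCCGC and TTTGGCGC (E2F-type) and CCAAT, on either strand (a CCAAT box on the other strand reads ATTGG). No E2F-type word overlapped a CCAAT word in these 4 sequences.
PCNA (chr20:5126623-5126872, minus strand): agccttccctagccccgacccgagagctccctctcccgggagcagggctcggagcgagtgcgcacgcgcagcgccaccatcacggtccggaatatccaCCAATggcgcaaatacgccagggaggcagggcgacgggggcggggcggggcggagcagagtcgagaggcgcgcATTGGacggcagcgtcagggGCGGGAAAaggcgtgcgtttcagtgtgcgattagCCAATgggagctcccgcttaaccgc
MCM7 (chr7:100101398-100101647, minus strand): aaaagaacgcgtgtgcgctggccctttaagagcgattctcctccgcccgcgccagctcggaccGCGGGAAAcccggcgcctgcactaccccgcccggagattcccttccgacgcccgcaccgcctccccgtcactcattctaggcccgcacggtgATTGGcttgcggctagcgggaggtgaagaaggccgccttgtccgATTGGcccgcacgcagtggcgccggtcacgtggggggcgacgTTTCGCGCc
MCM3 (chr6:52284743-52284992, minus strand): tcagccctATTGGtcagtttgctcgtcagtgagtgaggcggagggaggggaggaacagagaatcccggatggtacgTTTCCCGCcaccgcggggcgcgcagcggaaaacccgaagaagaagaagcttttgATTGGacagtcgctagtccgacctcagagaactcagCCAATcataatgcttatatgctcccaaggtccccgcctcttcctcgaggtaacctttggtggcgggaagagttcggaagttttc
RRM1 (chr11:4094435-4094684, plus strand): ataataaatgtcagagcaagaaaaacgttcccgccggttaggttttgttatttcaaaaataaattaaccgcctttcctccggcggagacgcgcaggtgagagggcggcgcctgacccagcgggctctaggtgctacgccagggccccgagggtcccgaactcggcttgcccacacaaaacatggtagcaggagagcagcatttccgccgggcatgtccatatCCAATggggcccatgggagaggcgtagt
These stretches held 1 E2F-type word in PCNA, 2 in MCM7, 1 in MCM3 and 0 in RRM1, and 3, 2, 3 and 1 CCAAT words. RefSeq listed 2 start windows for PCNA, 3 for MCM7 and 1 each for MCM3 and RRM1. Where there were several, the window with the most E2F-type words was shown, so these counts are not a like comparison of genes. Over windows from 250 bases before to 50 after each start, RefSeq had an entry for 34 of the 40 genes (not MCM4, MCM5, GINS4, POLD3, RPA2 and RPA3). An E2F-type word was found for 17 of the 34, against 3.99% of all 27305 genes with such a window. CCAAT was found for 61.8% of the 34 against 39.7%, GGGCGG (Sp1-type) for 73.5% against 48.3%, and TTTGAA, an element of late cell cycle genes, for 2.94% against 18.2%, each on both strands. Of the 17 genes with an E2F-type word, 12 were lower than the control at arsenic 15 µM, and of the 17 without one, 9 were. Lower here means at least 2 times, with a counting interval (defined below) that excludes 1, which held for 14.4% of all 18237 genes. The difference between these 2 sets was not tested. A match describes letters only, and says nothing of binding.

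Gene counts per library ran from 658725 (acetaminophen with exosomes) up to 8227906 (caffeine), and the control had 951816. The 40 genes had a median of 76 counts each in the control and of 57.5 to 386 in the libraries at large, with a lowest single value of 5 (POLE2 at arsenic 15 µM). Levels are CPM scaled by TMM, edgeR's trimmed-mean scaling. With 1 library per condition there is no replicate check: a counting interval of a ratio is the exact conditional binomial 95% interval, which compares 2 libraries and covers counting error alone, for reads that carry no molecular tags. All 12 hepatocyte and hepatoma markers checked were present in every library, summing to 9943 CPM at arsenic 15 µM and to 16335 to 28942 CPM in the others. Of 8 blood cell markers 5 to 7 were at 0 in each library, with sums of 1.71 to 128 CPM, and PPBP and PF4 were at 0 throughout. Of 5 fibroblast markers, summing to 21.8 to 65.2 CPM, 0 to 2 were at 0 in a library. Of the 40 genes, 13 overlap another protein-coding gene in GENCODE 29, 5 on the same strand (POLA2, PRIM1, POLD1, FEN1 and RRM2) and 10 on the other (MCM2, MCM7, GINS2, RFC4, RFC5, PRIM1, FEN1, RPA1, RPA3 and TYMS), and whether counting used strand is unstated, so reads of such partners may be shared. The libraries also differed in base composition. Over all genes, log2 levels relative to the 9-library mean were lower at higher GC content of the transcript in the acetaminophen library (Pearson's r -0.460) and in arsenic 5 µM (-0.373), against 0.140 in the control, and reads on small nucleolar RNA genes were 35.5% of the total at arsenic 5 µM, 11.5% with acetaminophen and 4.86% in the control. The 40 transcripts span 39.1% (RFC3) to 65.0% GC (POLD1), so values with GC and length trends removed are given where they change a count. This removal left part of the relation among the 40 genes. Over the 12 library pairs, r of their log2 ratios with GC content after removal ran from -0.380 to 0.394. The lowest was that of arsenic 5 µM against the control and the highest that of copper added to arsenic 5 µM.

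In the control, levels per kilobase of exon placed MCM7 first (220.4 CPM per kb), followed by PCNA (165), MCM3 (130.1), FEN1 (110.0) and MCM2 (95.6). The lowest were POLD3 (4.91), POLE2 (5.66) and GINS4 (6.55 CPM per kb), so MCM7 stood 44.9 times above POLD3. Counting intervals were separate for only 3 of the 39 pairs of neighbours in this order. The first 3 genes, MCM7, PCNA and MCM3, had intervals of 206 to 236, 145 to 187 and 118 to 143 CPM per kb.

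Replication genes took the smallest part of the RNA in the 2 libraries with arsenic alone. The 40 genes made up 0.549% of the counts in the control (95% exact binomial interval 0.535 to 0.565%), 0.598% with acetaminophen, 0.569% with exosomes and 0.570% with both. They made up 0.356% with caffeine, 0.441% with caffeine and acetaminophen, 0.200% at arsenic 5 µM, 0.158% at arsenic 15 µM (0.153 to 0.163%) and 0.390% with arsenic and copper. Of the counts on protein-coding genes alone, the share was 0.708% in the control, 0.412% at arsenic 5 µM and 0.184% at 15 µM. Fewer cells in S phase and less replication RNA per cell cannot be told apart in such bulk libraries. The lowest of the 9 levels lay at arsenic 15 µM for 25 of the 40 genes, and the highest lay in the acetaminophen library for 16. These counts were not taken over all genes, so they do not show whether the set differs from other genes.

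**Figure D1:**
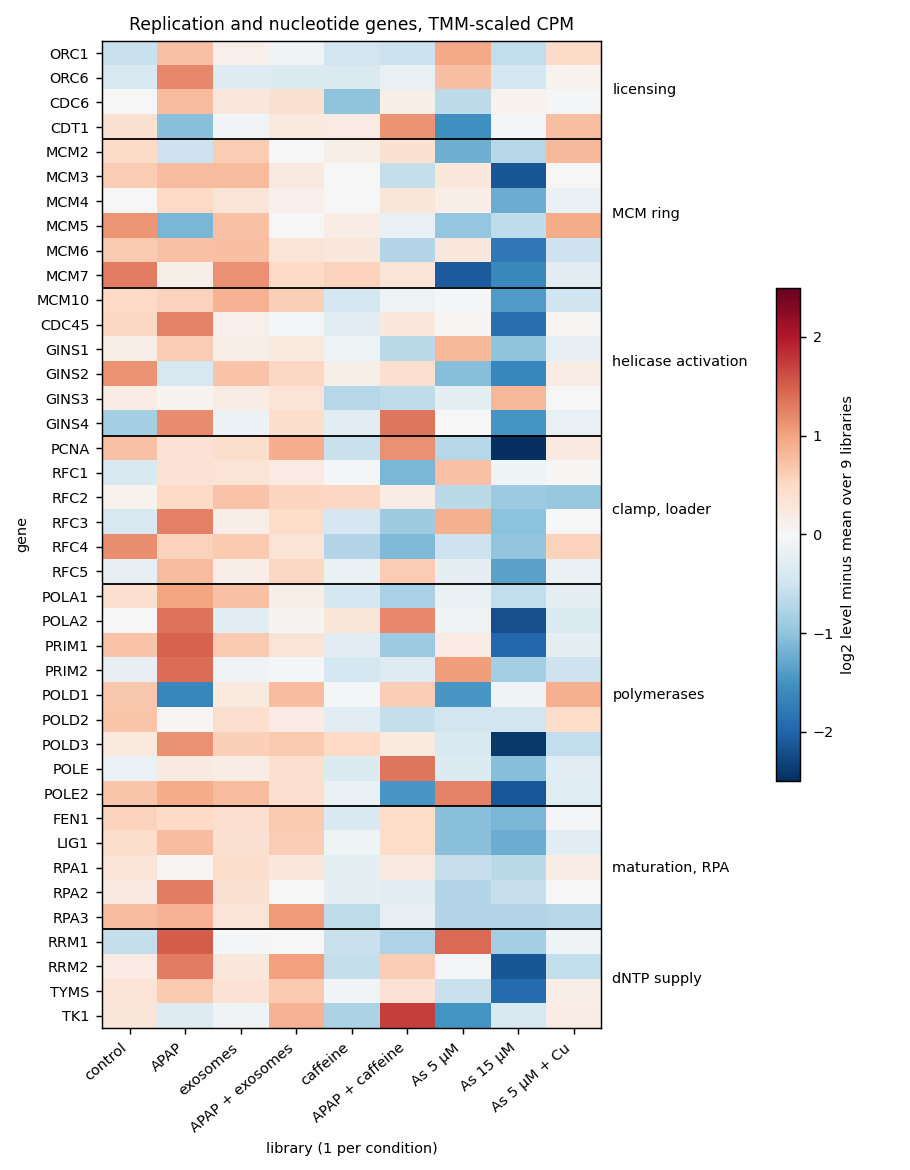
Log2 of the TMM-scaled CPM of each of the 40 genes (rows, grouped by role) in each library (columns), minus its mean over the 9 libraries; red is higher and blue lower, APAP is acetaminophen, As arsenic and Cu copper. The arsenic 15 µM column is the bluest, with 2 of 40 genes above their own mean, and acetaminophen without other treatment is red for 34 of 40. Such counts were not taken over all genes.

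Genes are called apart below when the ratio of 2 libraries, with 0.5 prior counts, is at least 2 either way and the counting interval excludes 1. At arsenic 15 µM 25 of the 40 genes were apart from the control on the low side and 0 on the high side, where 14.4% of all 18237 genes were lower and 16.5% higher. The median log2 ratio was -1.18 for the 40 genes, -0.16 for all genes and 0.07 for the 9339 genes with mean levels in the same span. With GC and length trends removed the count was again 25, of which 22 were among the first 25, where 13.2% of all genes were lower. All 6 genes of the MCM ring were among the 25, as were 4 of 6 helicase activators, 4 of 6 clamp and loader genes, 6 of 9 polymerase and primase subunits, 3 of 5 maturation and RPA genes and 2 of 4 deoxynucleotide genes. None of the 4 licensing genes were apart, with log2 ratios of -0.07 (ORC1), -0.07 (ORC6), 0.07 (CDC6) and -0.44 (CDT1). The median log2 ratio of the ring was -2.08 and that of licensing -0.07; the difference between these role groups was not tested.

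At arsenic 5 µM the 40 genes split. Lower and apart were 13 (15% of all genes), and higher and apart were 6 (16.4% of all genes), with a median log2 ratio of -0.56 against -0.23 for all genes. The split followed base composition: across the 40 genes, which share the 2 libraries, Pearson's r of the log2 ratio with GC content was -0.602 (Spearman's rho -0.592), and the medians were -0.31 for the 20 genes of lower and -1.06 for the 20 of higher GC content. The higher genes with intervals farthest from 1 were RRM1 at a ratio of 4.02 (counting interval 3.15 to 5.19), ORC1 and RFC3. The lower ones were MCM7, MCM5 at 0.238 (counting interval 0.197 to 0.287) and POLD1 at 0.230 (counting interval 0.165 to 0.317). GINS2, on 26 counts at arsenic 5 µM, had a ratio below those of MCM5 and POLD1. With the trends removed, 3 genes (ORC1, ORC6 and RRM1) were higher and 15 lower, 10 of them among the 13 (all genes 11.1% and 13.6%). At 15 µM the same r was 0.0259. The part of base composition in the 5 µM values was not tested further.

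Arsenic at 5 µM with copper lay nearer the control, with 4 genes lower and apart (MCM6, MCM7, RFC2 and RPA3; 7.11% of all genes were lower) and 1 higher (ORC1; 9.22%). The median log2 ratio was -0.29, against -0.03 for all genes. With DESeq2 size factors 8 genes were lower and 0 higher (share of all genes not given), and with the trends removed 5 and 0 (all genes 6.54% and 6.65%). Against arsenic 5 µM without copper, 9 genes were higher (16.5% of all genes) and 4 lower (13.7%), with r to GC content of 0.761; with the trends removed these counts were 7 and 3 (all genes 10.9% and 8.43%). The higher genes with intervals farthest from 1 were POLD1, MCM2 and MCM5, at ratios of 5.04, 4.06 and 3.76. The ratio of CDT1, on 21 counts at arsenic 5 µM, lay between those of POLD1 and MCM2. The pairs of this and the other comparisons with the control or with arsenic 5 µM share that library, so their values are given side by side only. Between the arsenic doses, 20 genes were lower at 15 than at 5 µM (17.5% of all genes) and 4 higher (19.6%). Removing the trends left 19 lower, 18 of them among the 20, and 2 higher (all genes 13.6% and 18.3%).

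**Figure D2:**
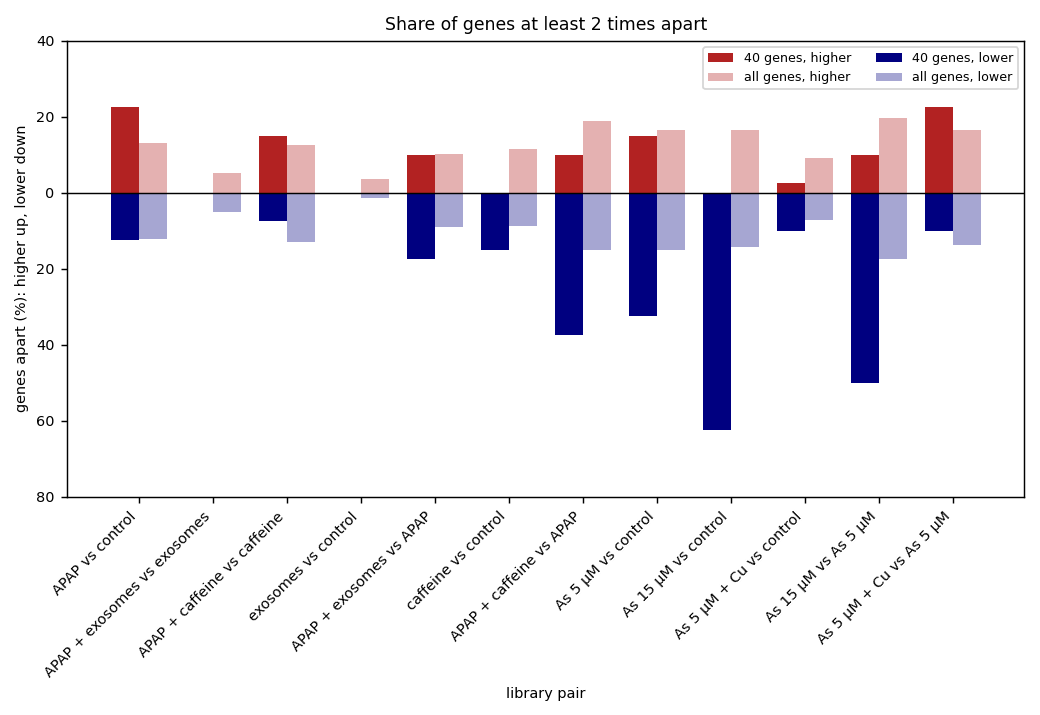
Percent of the 40 genes (dark bars) and of all 18237 genes (pale bars) called apart in each of 12 library pairs, higher drawn upward and lower downward. The dark bar for arsenic 15 µM against the control reaches 62.5% on the low side, beside 14.4% of all genes.

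The acetaminophen pairs differed in their counts over the 3 backgrounds. Without other treatment 9 genes were higher (13% of all genes) and 5 lower (12.1%), with a median log2 ratio of 0.35 against -0.20 for all genes. With exosomes as background 0 genes were apart either way (5.22% of all genes higher, 5.14% lower; median 0.03), and again 0 with the trends removed (3.55% and 6.64% of all genes). With caffeine as background 6 were higher (12.6%) and 3 lower (13%), with a median of 0.20. Without other treatment, the higher genes with intervals farthest from 1 were RRM1, at a ratio of 4.32 (counting interval 3.37 to 5.62), GINS4 and RFC3. The lower genes with intervals farthest from 1 were MCM5, at 0.212 (counting interval 0.167 to 0.267), POLD1 and MCM7. By the ratio itself POLD1 was lowest, below MCM5. With caffeine the highest were TK1, PCNA and POLE at ratios of 5.72, 3.24 and 3.21, and the lowest MCM6, RFC1 and POLE2 at 0.497, 0.460 and 0.410. These 3 pairs share no library, and GINS4 and RRM2 were higher and apart in 2 of them; with the trends removed RRM2 was no longer apart without other treatment, and GINS4 was in both. GINS4, a GINS subunit, gave ratios of 3.99, 1.49 and 3.09 on the 3 backgrounds, and RRM2, the cell cycle-regulated reductase subunit, gave 2.10, 1.70 and 2.33. In the pair without other treatment the ratios followed base composition (r -0.615 over the 40 genes), and with the trends removed 9 were higher, 7 of them among the 9, and 3 lower (MCM5, GINS2 and POLD1), beside 7.89% and 7.45% of all genes.

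With serum exosomes no difference of this size was detected at this depth: 0 genes were apart from the control, where 3.57% of all genes were higher and 1.44% lower, and single log2 ratios ran from -0.52 to 0.72. With the trends removed the count was 0 again (1.99% of all genes higher, 0.812% lower). At a cut of 1.5 times 4 genes were higher and 0 lower (share of all genes not given). Added to acetaminophen, exosomes gave 4 higher (10.2% of all genes) and 7 lower genes (8.89%), with r to GC content of 0.624. With the trends removed these were 1 (POLD1) and 6 (all genes 5.85% and 6.71%).

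Caffeine went with lower levels of most of the set. Against the control 32 of 40 log2 ratios were negative, 6 genes were lower and apart (CDC6, PCNA, RFC4, PRIM1, RPA3 and TK1; 8.63% of all genes) and 0 were higher (11.6%), and the median was -0.56 against 0.03 for all genes. Many ratios lay close to the threshold of 2: with DESeq2 size factors 14 genes were lower and apart, and with TMM from protein-coding genes 11. These scalings also shifted the log2 ratios of all genes, by -0.18 and -0.07, and shares of all genes are not given for them. With the trends removed 5 were (CDC6, MCM10, RFC4, POLA1 and RPA3), 3 of them among the 6, beside 6.95% of all genes. When caffeine was added to acetaminophen, 15 genes were lower (15%) and 4 higher (18.8%), the median was -0.64, and r to GC content was 0.788. Removing the trends gave 14 lower, 11 of them among the 15, and 1 higher (PCNA), beside 10.5% and 12.6% of all genes. RFC4, PRIM1 and RPA3 were lower and apart in both caffeine pairs, which share no library. With the trends removed PRIM1 was no longer apart from the control with caffeine, nor RPA3 in the pair with acetaminophen, and RFC4 and POLA1 were apart in both.

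**Figure D3:**
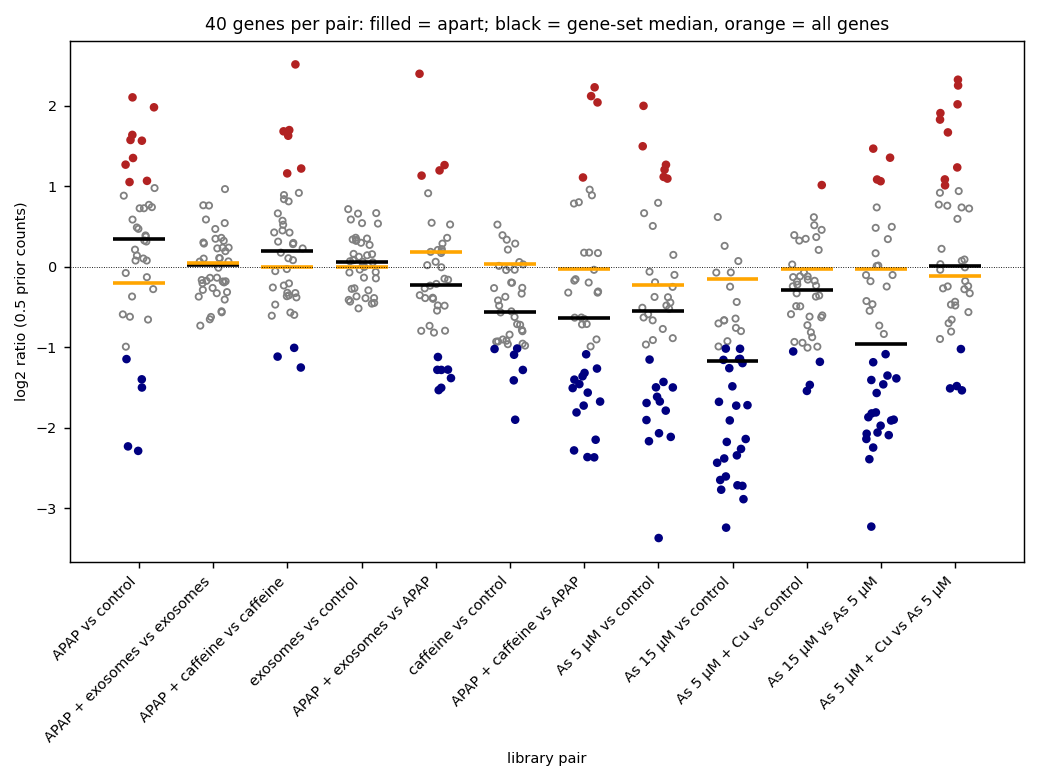
Log2 ratio of each of the 40 genes (points) in 12 library pairs; filled points were apart, red higher and blue lower, and bars give the median of the 40 genes (black) and of all genes (orange). The black bar lies lowest for arsenic 15 µM against the control, at -1.18, and on the zero line for acetaminophen with exosomes against exosomes, at 0.03.

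Among the licensing genes, CDT1 and CDC6 varied most and ORC1, a subunit of the origin recognition complex, least. CDT1 stood at 33.9 CPM in the control, at 12.7, 24.8 and 30.6 CPM with acetaminophen, exosomes and both, at 29.9 and 56.5 CPM with caffeine without and with acetaminophen, and at 8.96, 25.2 and 43.5 CPM with arsenic at 5 µM, at 15 µM and at 5 µM with copper. CDT1, the loader of the MCM ring, was thus low in the acetaminophen and arsenic 5 µM libraries and highest with acetaminophen and caffeine; its transcript has 64.9% GC. The CDC6 level was 71.6 CPM in the control, 122 CPM with acetaminophen, 86.8 CPM with exosomes, 93.1 CPM with acetaminophen and exosomes, 35.4 CPM with caffeine, 79.2 CPM with caffeine and acetaminophen, 45.2 CPM with arsenic at 5 µM, 75.5 CPM at 15 µM and 68.4 CPM with arsenic and copper. CDC6, the ATPase that works with CDT1, had its lowest level with caffeine, at a ratio to the control of 0.495 (counting interval 0.383 to 0.647). For ORC1 the arsenic libraries held 105 CPM (5 µM), 35.2 CPM (15 µM) and 75.1 CPM (5 µM with copper), the caffeine libraries 38.7 CPM alone and 37.2 CPM with acetaminophen, and the others 36.8 (control), 89.4 (acetaminophen), 59.0 (exosomes) and 51.0 CPM (acetaminophen with exosomes). ORC1 was highest at arsenic 5 µM, where its ratio to the control was 2.85 (counting interval 2.02 to 4.13). ORC6 had a like profile, from 33.4 to 105 CPM, with its highest level in the acetaminophen library.

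In the MCM ring, whose 6 proteins form 1 helicase, the genes had different profiles. MCM7 stood at 805 CPM in the control, at 363, 733 and 465 CPM with acetaminophen, exosomes and both, at 491 and 410.4 CPM with caffeine without and with acetaminophen, and at 77.6, 109 and 276 CPM with arsenic at 5 µM, at 15 µM and at 5 µM with copper. Per kilobase MCM7 led the ring in the control and in both exosome and both caffeine libraries. At arsenic 5 µM MCM7 and MCM5 were level and lowest in the ring (21.3 and 21.2 CPM per kb, on 182 and 176 counts). The ratio of MCM7 to the control there was 0.0964 (counting interval 0.0817 to 0.113). The MCM3 level was 418 CPM in the control, 460.3 CPM with acetaminophen, 467 CPM with exosomes, 315 CPM with acetaminophen and exosomes, 271 CPM with caffeine, 179 CPM with caffeine and acetaminophen, 322 CPM with arsenic at 5 µM, 61.1 CPM at 15 µM and 272 CPM with arsenic and copper. The MCM3 level stayed near the control at arsenic 5 µM and was lowest at 15 µM, with a ratio of 0.146 (counting interval 0.122 to 0.175). For MCM4 the arsenic libraries held 331 CPM (5 µM), 125 CPM (15 µM) and 264 CPM (5 µM with copper), the caffeine libraries 292 CPM alone and 362 CPM with acetaminophen, and the others 299 (control), 415 (acetaminophen), 368 (exosomes) and 324 CPM (acetaminophen with exosomes). MCM4 varied least in the ring, although its arsenic 15 µM level was also below all 8 others. MCM2 ranged from 107 to 434 CPM, MCM5 from 66.9 (acetaminophen) to 315 (control) and MCM6 from 47.1 (arsenic 15 µM) to 271 CPM (exosomes). Summed over the ring, levels were 2439 CPM in the control, 1109.6 at arsenic 5 µM, 588 at 15 µM and 1641 CPM with copper. Per kilobase, the highest ring gene stood 2.85 times above the lowest with caffeine and 7.57 times with acetaminophen. The per-length ratio of MCM7 to MCM4, counted within 1 library and so free of scaling between libraries, was 3.20 (interval 2.81 to 3.66) in the control, 0.279 (interval 0.236 to 0.328) at arsenic 5 µM and 1.04 (interval 0.884 to 1.21) at 15 µM. This ratio was chosen after the values were seen, and MCM7 has 57.6% GC against 48.5% for MCM4. In the ring MCM2, MCM5 and MCM7 have 57.0% to 58.1% GC, and MCM3, MCM4 and MCM6 have 43.1% to 51.6%. The part of base composition in these profiles was not tested.

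Of the helicase activators, CDC45 and GINS4 varied most and GINS3 least. CDC45 stood at 75.5 CPM in the control, at 125, 57.8 and 51.0 CPM with acetaminophen, exosomes and both, at 44.0 and 63.1 CPM with caffeine without and with acetaminophen, and at 54.2, 14.4 and 53.9 CPM with arsenic at 5 µM, at 15 µM and at 5 µM with copper. CDC45, a core part of the active helicase, was lowest at arsenic 15 µM, at a ratio of 0.191 (counting interval 0.127 to 0.282), and stood between 44.0 and 125 CPM elsewhere. The GINS4 level was 35.8 CPM in the control, 143 CPM with acetaminophen, 57.2 CPM with exosomes, 85.4 CPM with acetaminophen and exosomes, 52.1 CPM with caffeine, 161 CPM with caffeine and acetaminophen, 62.7 CPM with arsenic at 5 µM, 22.7 CPM at 15 µM and 55.4 CPM with arsenic and copper. The 2 highest GINS4 levels were those of acetaminophen without other treatment and with caffeine. For GINS3 the arsenic libraries held 13.6 CPM (5 µM), 28.8 CPM (15 µM) and 16.0 CPM (5 µM with copper), the caffeine libraries 9.85 CPM alone and 10.4 CPM with acetaminophen, and the others 18.4 (control), 16.9 (acetaminophen), 18.3 (exosomes) and 20.4 CPM (acetaminophen with exosomes). GINS3 was the only activator with its highest level at arsenic 15 µM, where its ratio to the control, 1.56 (counting interval 0.9398 to 2.73), had an interval that includes 1. GINS1 ranged from 20.9 to 74.2 CPM, GINS2 from 7.55 to 50.3 CPM and MCM10 from 21.6 to 105 CPM, each lowest at arsenic 15 µM. The GINS proteins act as 1 complex of equal parts, but the per-length ratio of GINS2 to GINS1 was 1.32 (interval 0.872 to 1.99) in the control and 0.182 (interval 0.115 to 0.275) at arsenic 5 µM (49.1% against 41.4% GC; chosen after the values were seen).

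PCNA had the widest range of the 40 genes. PCNA stood at 243 CPM in the control, at 188, 198 and 274 CPM with acetaminophen, exosomes and both, at 99.9 and 324 CPM with caffeine without and with acetaminophen, and at 90.0, 25.5 and 173 CPM with arsenic at 5 µM, at 15 µM and at 5 µM with copper. PCNA, the sliding clamp, was at 25.5 CPM at arsenic 15 µM, a ratio to the control of 0.105 (counting interval 0.0796 to 0.137), and the other 8 libraries held at least 90.0 CPM. With caffeine it was at a ratio of 0.412 (counting interval 0.357 to 0.476), and adding acetaminophen to caffeine brought a ratio of 3.24 (counting interval 2.99 to 3.53). The RFC3 level was 29.03 CPM in the control, 91.5 CPM with acetaminophen, 42.8 CPM with exosomes, 52.3 CPM with acetaminophen and exosomes, 28.6 CPM with caffeine, 20.6 CPM with caffeine and acetaminophen, 70.8 CPM with arsenic at 5 µM, 18.7 CPM at 15 µM and 37.9 CPM with arsenic and copper. RFC3, a small subunit of the clamp loader, was highest in the 2 libraries that held less of GC-rich transcripts, acetaminophen and arsenic 5 µM, and it has the lowest GC content of the set. For RFC2 the arsenic libraries held 15.4 CPM (5 µM), 12.9 CPM (15 µM) and 12.6 CPM (5 µM with copper), the caffeine libraries 34.8 CPM alone and 27.8 CPM with acetaminophen, and the others 26.1 (control), 34.5 (acetaminophen), 39.8 (exosomes) and 35.7 CPM (acetaminophen with exosomes). RFC2 was lower in all 3 arsenic libraries than in any other, although the control interval is wide: the ratio at 15 µM was 0.495 (counting interval 0.293 to 0.849). With the trends removed RFC2 was no longer apart from the control at arsenic 15 µM or with arsenic and copper. It was then higher and apart with acetaminophen. RFC4 ranged from 15.9 (acetaminophen with caffeine) to 76.4 CPM (control), RFC5 from 16.2 to 71.1 CPM and RFC1, the large subunit, from 25.5 to 93.8 CPM.

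Among the polymerase genes, POLA2 and POLD3 varied most and POLD2 least. POLA2 stood at 37.7 CPM in the control, at 97.1, 31.4 and 39.5 CPM with acetaminophen, exosomes and both, at 46.6 and 86.4 CPM with caffeine without and with acetaminophen, and at 35.4, 8.27 and 29.4 CPM with arsenic at 5 µM, at 15 µM and at 5 µM with copper. POLA2, the second subunit of the primer-making polymerase alpha, was lowest at arsenic 15 µM, at a ratio of 0.219 (counting interval 0.125 to 0.376). The POLD3 level was 20.3 CPM in the control, 38.003 CPM with acetaminophen, 26.0 CPM with exosomes, 26.8 CPM with acetaminophen and exosomes, 24.0 CPM with caffeine, 20.4 CPM with caffeine and acetaminophen, 13.2 CPM with arsenic at 5 µM, 3.24 CPM at 15 µM and 11.1 CPM with arsenic and copper. POLD3, an accessory subunit of polymerase delta, rests on 9 counts at arsenic 15 µM, for a ratio of 0.159 (counting interval 0.0642 to 0.363). For POLD2 the arsenic libraries held 43.9 CPM (5 µM), 44.2 CPM (15 µM) and 83.3 CPM (5 µM with copper), the caffeine libraries 50.3 CPM alone and 40.1 CPM with acetaminophen, and the others 97.7 (control), 61.9 (acetaminophen), 81.4 (exosomes) and 70.1 CPM (acetaminophen with exosomes). POLD2, the second delta subunit, was lower than the control in all 8 treated libraries and apart from it at arsenic 5 and 15 µM. The primase subunit PRIM1 gave ratios of 0.498 with caffeine, 0.194 for caffeine added to acetaminophen and 0.157 at arsenic 15 µM, and the other primase subunit, PRIM2, ranged from 12.9 to 61.2 CPM. POLE2, an accessory subunit of polymerase epsilon, was at 12.6 CPM in the control and 1.80 CPM (5 counts) at arsenic 15 µM. The catalytic subunits of the leading and lagging strand polymerases, POLE and POLD1, parted. POLE reached 415 CPM with acetaminophen and caffeine, from 148 CPM in the control, while POLD1 was at 111, 22.5 and 25.6 CPM in the control, acetaminophen and arsenic 5 µM libraries. Their per-length ratio, POLE to POLD1, was 0.599 (interval 0.467 to 0.769) in the control and 3.84 (interval 2.66 to 5.72) with acetaminophen. It was 2.28 (interval 1.72 to 3.06) at arsenic 5 µM and 0.476 (interval 0.410 to 0.553) with arsenic and copper (chosen after the values were seen). POLD1 has 65.0% GC and POLE 55.6%, and the part of base composition in this ratio was not tested. POLA1, the catalytic alpha subunit, ranged from 16.3 to 57.0 CPM.

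In the maturation and single-strand binding group, RPA2 and LIG1 varied most and RPA1 least. RPA2 stood at 90.0 CPM in the control, at 187, 99.7 and 76.5 CPM with acetaminophen, exosomes and both, at 64.6 and 63.3 CPM with caffeine without and with acetaminophen, and at 46.1, 51.8 and 76.2 CPM with arsenic at 5 µM, at 15 µM and at 5 µM with copper. RPA2, the middle RPA subunit, was apart only in pairs that hold the acetaminophen library, where it stood at a ratio to the control of 2.08 (counting interval 1.64 to 2.66). The LIG1 level was 103 CPM in the control, 129 CPM with acetaminophen, 97.9 CPM with exosomes, 115 CPM with acetaminophen and exosomes, 69.4 CPM with caffeine, 103 CPM with caffeine and acetaminophen, 36.2 CPM with arsenic at 5 µM, 32.0 CPM at 15 µM and 62.1 CPM with arsenic and copper. LIG1, the ligase that joins lagging-strand fragments, was low in both libraries with arsenic alone, at ratios of 0.353 (counting interval 0.263 to 0.475) and 0.312 (counting interval 0.233 to 0.418). For RPA1 the arsenic libraries held 90.0 CPM (5 µM), 83.8 CPM (15 µM) and 152 CPM (5 µM with copper), the caffeine libraries 114 CPM alone and 155 CPM with acetaminophen, and the others 166 (control), 137 (acetaminophen), 182 (exosomes) and 159 CPM (acetaminophen with exosomes). RPA1, the large subunit, was the only gene of the 40 that was apart in none of the 12 pairs. It came close at arsenic 15 µM, at a log2 ratio to the control of -0.99. With the trends removed it was lower than the control and apart at both arsenic 5 and 15 µM. FEN1 ranged from 76.6 to 269 CPM, lowest at arsenic 15 µM. RPA3 was between 17.1 and 18.3 CPM in the 3 arsenic libraries and with caffeine, against 48.4 CPM in the control.

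**Figure D4:**
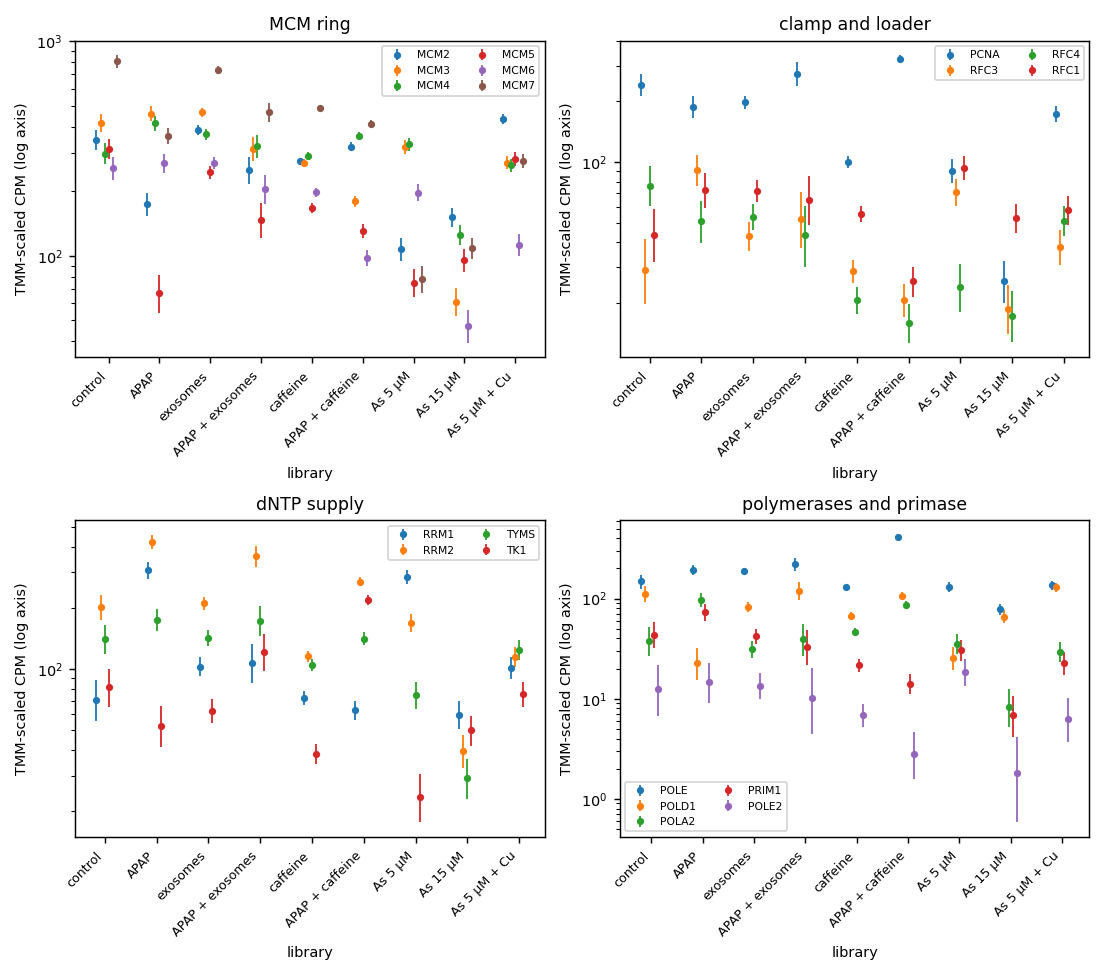
TMM-scaled CPM (log axis) of the MCM ring, of PCNA and 3 loader genes, of the 4 deoxynucleotide genes and of 5 polymerase and primase genes in each library, with 95% Poisson counting intervals. PCNA lies at 25.5 CPM at arsenic 15 µM and at 90.0 CPM or more elsewhere, and RRM1 and RRM2 change order between the control and the libraries with arsenic alone.

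For deoxynucleotide supply, the subunits of ribonucleotide reductase differed in profile. RRM2 stood at 201 CPM in the control, at 422, 211 and 358 CPM with acetaminophen, exosomes and both, at 116 and 269 CPM with caffeine without and with acetaminophen, and at 169, 39.6 and 114 CPM with arsenic at 5 µM, at 15 µM and at 5 µM with copper. RRM2, the subunit made in S phase, was lowest at arsenic 15 µM, at a ratio of 0.197 (counting interval 0.155 to 0.249). The RRM1 level was 70.6 CPM in the control, 305 CPM with acetaminophen, 103 CPM with exosomes, 107 CPM with acetaminophen and exosomes, 72.5 CPM with caffeine, 62.7 CPM with caffeine and acetaminophen, 284 CPM with arsenic at 5 µM, 59.7 CPM at 15 µM and 101 CPM with arsenic and copper. RRM1, the large catalytic subunit, was 4.32 times the control with acetaminophen and 4.02 times at arsenic 5 µM, and stayed within 59.7 to 107 CPM elsewhere. The per-length ratio of RRM2 to RRM1 was 2.48 (interval 1.89 to 3.28) in the control, 3.74 (interval 3.32 to 4.23) with acetaminophen and caffeine, 0.519 (interval 0.457 to 0.588) at arsenic 5 µM and 0.577 (interval 0.449 to 0.738) at 15 µM. These 2 transcripts are close in GC content (45.8% and 43.5%), and the ratio was chosen after the values were seen. For TK1 the arsenic libraries held 23.5 CPM (5 µM), 49.98 CPM (15 µM) and 75.1 CPM (5 µM with copper), the caffeine libraries 38.2 CPM alone and 219 CPM with acetaminophen, and the others 81.3 (control), 52.8 (acetaminophen), 62.3 (exosomes) and 121 CPM (acetaminophen with exosomes). TK1, the thymidine salvage kinase, was below the control with caffeine, at a ratio of 0.471 (counting interval 0.369 to 0.605), and 5.72 times higher again when acetaminophen was added. TYMS, which makes thymidylate anew, ranged from 29.1 (arsenic 15 µM) to 175 CPM (acetaminophen).

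No gene of the 40 passed a test over all genes. The additive edgeR quasi-likelihood model of the 9 libraries had terms for acetaminophen, exosomes, caffeine and arsenic. Its arsenic term took all arsenic libraries as 1 group, whatever the dose and with or without copper. Differences between doses or with copper thus entered the spread between libraries, and neither dose was tested by itself against the control. In this model 0 of 40 had an adjusted p under 0.05 for any term. Of all 18237 genes, 0.0219%, 0%, 0.0823% and 0.494% were called for these terms. At an unadjusted p under 0.05 there were 1, 0, 2 and 4 of the 40, where 5.34%, 0.62%, 7.31% and 9.17% of all genes were, and DESeq2 with the same terms gave 1, 0, 4 and 6, and 0 at its adjusted threshold. For arsenic the smallest edgeR p belonged to MCM7 (log2 fold change -2.17, SE 0.723, adjusted p 0.207), PRIM1 (log2 fold change -1.59, SE 0.731, adjusted p 0.491) and RPA3 (log2 fold change -1.33, SE 0.643, adjusted p 0.53), and MCM7 was at an adjusted p of 0.05003, just over the threshold, with DESeq2. MCM7 had lower levels than the control in all 8 other libraries. With GC and length trends removed, the arsenic term of MCM7 passed edgeR at an adjusted p of 0.0492. For caffeine the leading edgeR genes were RFC4 (log2 fold change -1.79, SE 0.692, adjusted p 0.543), PRIM1 (log2 fold change -1.72, SE 0.734, adjusted p 0.622) and POLA1 (log2 fold change -1.36, SE 0.681, adjusted p 0.689). For acetaminophen they were GINS4 (log2 fold change 1.40, SE 0.571, adjusted p 0.703), MCM5 (log2 fold change -1.09, SE 0.623, adjusted p 1) and RRM2 (log2 fold change 1.02, SE 0.594, adjusted p 1), and for exosomes CDC45, ORC6 and POLA2, all at an edgeR adjusted p of 1. The medians of the 40 coefficients were 0.21, -0.04, -0.62 and -0.76 on the log2 scale for acetaminophen, exosomes, caffeine and arsenic.

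Extra terms, each resting on 1 library, asked whether an effect differed between backgrounds or doses. The signs of their coefficients were counted for the 40 genes only, not over all genes. For arsenic 15 µM beyond arsenic, 37 of 40 coefficients were negative with a median of -1.13, and 7 genes had an unadjusted edgeR p under 0.05, all lower, where 4.69% of all genes did on that side and 10.1% on either. None of the 40 passed adjustment, at which 1.09% of all genes were called, and DESeq2 gave 9 unadjusted and 0 adjusted. The smallest edgeR p were those of POLE2 (log2 fold change -2.74, SE 1.11, adjusted p 0.277), PCNA (log2 fold change -2.36, SE 0.960, adjusted p 0.281) and MCM3 (log2 fold change -2.28, SE 1.00, adjusted p 0.362). For copper 30 of 40 coefficients were positive, led by MCM5 (log2 fold change 1.73, SE 0.871, adjusted p 1), MCM2 (log2 fold change 1.75, SE 0.905, adjusted p 1) and PCNA (log2 fold change 1.58, SE 0.894, adjusted p 1) in edgeR. None of the 40 passed for copper, with 0 at an unadjusted p under 0.05 in edgeR (2.35% of all genes) and 3 in DESeq2, which also called 0. Terms for acetaminophen with exosomes and acetaminophen with caffeine called 0 of 40 in edgeR and DESeq2, with 0 at an unadjusted p under 0.05 in either tool (0.477% and 1.09% of all genes in edgeR). The smallest edgeR p were those of POLD1, GINS4 and RPA2 for exosomes and of TK1 (log2 fold change 2.34, SE 1.34, adjusted p 1), PCNA and POLD1 for caffeine, all at an adjusted p of 1.

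**Figure D5:**
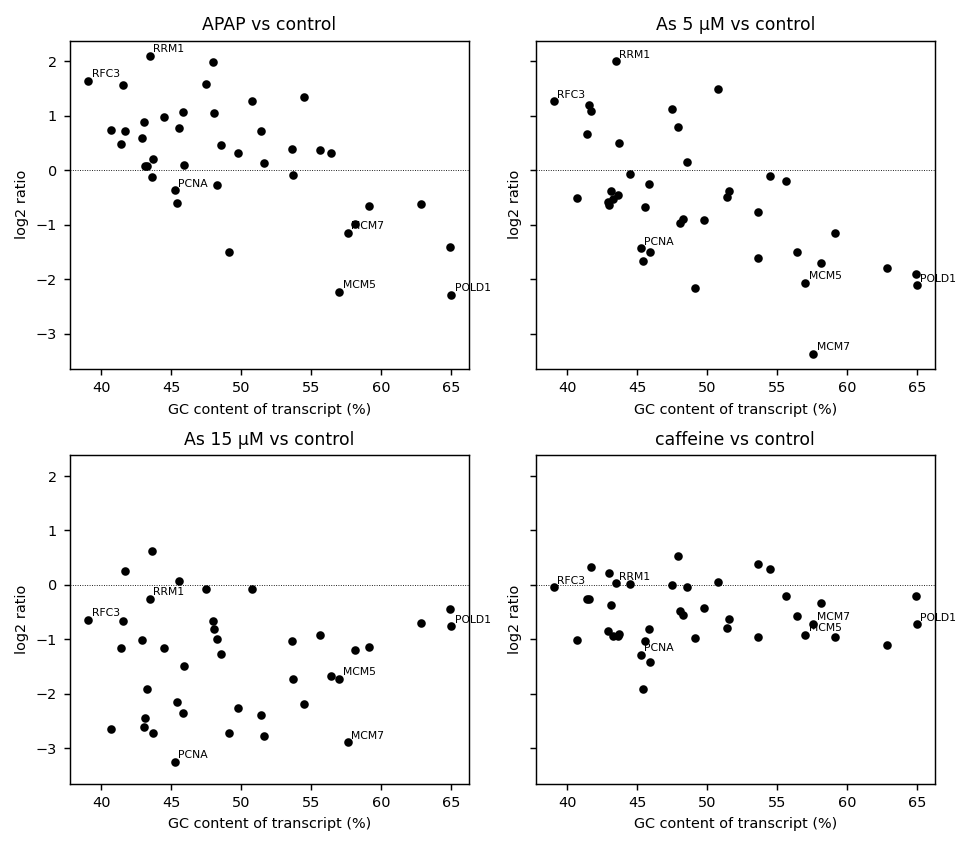
Log2 ratio against the control of each of the 40 genes, plotted over the GC content of its longest transcript, for acetaminophen (APAP), arsenic (As) 5 µM, arsenic 15 µM and caffeine. The points slope downward for acetaminophen and arsenic 5 µM (r -0.615 and -0.602) and show little slope for arsenic 15 µM and caffeine (r 0.0259 and -0.0474).

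The counts of the other gene lists at arsenic 15 µM stand beside 16.5% higher and 14.4% lower over all genes. Of 33 further origin and fork factors, 10 were lower and 1 higher than the control at arsenic 15 µM (median log2 ratio -0.56), and 12 and 2 with the trends removed. CLSPN, the fork adaptor of checkpoint signalling, was at 33.9, 239 and 5.75 CPM in the control, acetaminophen and arsenic 15 µM libraries, and the fork nuclease DNA2 at 15.5, 95.01 and 7.91 CPM. DSCC1, of an alternative clamp loader, was at 18.4, 66.9 and 3.60 CPM and the cohesin acetyltransferase ESCO2 at 4.84, 66.9 and 5.39 CPM. All 4 were highest in the acetaminophen library, where 16 of the 33 were higher and 3 lower than the control (13% and 12.1% of all genes), with a median log2 ratio of 0.95. With the trends removed these were 11 and 2 (7.89% and 7.45%), with a median of 0.45.

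Of 31 further nucleotide synthesis genes, 16 were lower and 2 higher at arsenic 15 µM (median -1.01; 18 and 2 with the trends removed). NME1, a nucleoside diphosphate kinase whose reads may be shared with its adjacent paralogue NME2, was at 264 CPM in the control, 9.85 with acetaminophen and 34.2 at arsenic 15 µM. DHODH, of pyrimidine synthesis, was at 39.7, 8.53 and 2.52 CPM in the control and at arsenic 5 and 15 µM, and IMPDH2, of guanine nucleotide synthesis, at 279, 40.1 and 92.0 CPM. MTHFD2, a mitochondrial folate enzyme, went the other way, at 63.9, 729.6 and 488 CPM.

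Of 8 genes of chromatin assembly and maintenance behind the fork, 6 were lower and 0 higher at arsenic 15 µM (median -1.30). ASF1B, a histone chaperone, was at 40.6 CPM in the control, 156 with acetaminophen and caffeine and 9.35 at arsenic 15 µM, and the chaperones NASP and CHAF1B and the maintenance methyltransferase DNMT1 stood at 149 and 37.4 (NASP), 26.1 and 7.55 (CHAF1B) and 155 and 59.0 CPM (DNMT1) in the control and at arsenic 15 µM. Of 9 checkpoint genes, 1 was lower and 2 were higher there, shares of 11.1% and 22.2% that are near those of all genes (median 0.54, and 0.04 with the trends removed). WEE1, the kinase that restrains CDK1, was at 40.6 CPM in the control and 81.6 CPM at arsenic 15 µM, HUS1 at 4.84 and 27.7 CPM, ATRIP at 28.1 and 4.67 CPM and ETAA1 at 3.87 and 2.88 CPM.

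Of 23 genes of G1 to S control, 5 were higher and 10 lower at arsenic 15 µM (3 and 10 with the trends removed), beside 16.5% and 14.4% of all genes, and 2 passed edgeR in the extra term for that dose, beside 1.09% of all genes. CDKN1A, the inhibitor of cyclin-dependent kinases that also binds PCNA, was at 9.68 CPM in the control, 10.2, 754 and 62.4 CPM in the arsenic libraries (5 µM, 15 µM, 5 µM with copper), and 106 CPM with acetaminophen and caffeine. The extra term tests arsenic 15 µM against what the arsenic term gives for the other arsenic libraries, not against the control, and for CDKN1A it had a log2 fold change of 4.37 (SE 0.811, edgeR adjusted p 0.000101). Cyclin E1 (CCNE1), which drives entry into S phase, had levels of 10.2, 62.6 and 6.69 CPM in the same arsenic libraries, against 22.3 CPM without treatment, so it was below the control in both libraries at 5 µM. Its extra term was 2.88 (SE 0.798, edgeR adjusted p 0.0368), while its additive arsenic term was 0.36 (edgeR adjusted p 0.944). CCNE2 was at 6.77 and 5.39 CPM and SKP2, which marks CDKN1B for destruction, at 123 and 15.8 CPM in the control and at arsenic 15 µM. Of 25 mitosis genes, given for comparison, 12 were lower and 0 higher than the control at arsenic 15 µM (median -0.95; 8 lower with the trends removed). At arsenic 5 µM 9 were higher and 5 lower (16.4% and 15% of all genes), with a median of 0.55 (0.10 with the trends removed) beside -0.56 for the 40 replication genes. With acetaminophen and exosomes against exosomes 12 were lower and 0 higher (5.14% and 5.22% of all genes), with a median of -0.96 beside 0.03 for the 40. The difference between the lists was not tested.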

How the data were processed

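RNA of 9 HuH-7 cultures, 1 library per condition, was analysed from read counts per Ensembl gene as the authors deposited them, with no normalization. Per the submitters' processing notes, the tools were TopHat2 2.0.13 and HTSeq 0.6.1 and the build GRCh37; annotation release and strand setting are unstated there. The 5 summary lines of each file (42.3% to 70.3% of its reads) were left out. Identifiers were named from GENCODE 29 (52526 of 63677 matched), which is on GRCh38, so no coordinates were carried over from the counts; exon length and GC content come from the same annotation. One entry of the other gene lists, UHRF1, found no match.

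Groups were taken from the sample labels. The filter was 1 CPM or more in 2 or more libraries (18237 genes kept). Levels are CPM scaled by TMM in edgeR 4.0.16 (limma 3.58.1, R 4.3.3). Pairs of libraries were compared by ratios with exact conditional binomial intervals (scipy 1.17.1), with 0.5 prior counts in log2 ratios. The additive edgeR quasi-likelihood model had 4 residual degrees of freedom (extra terms 3 each), with Benjamini-Hochberg adjustment over all genes kept; an SE is the size of the log2 fold change divided by the square root of F. Nothing in the labels speaks of separate cultures as replicates, so p-values measure the spread between these libraries about an additive model. The model and the intervals were tested on simulated data. GC and length were known for 17741 of the genes kept, all 40 members among them.

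The members and lists were chosen with earlier results of these data known. Named genes are, per role group, the 2 with the widest and the 1 with the narrowest range. Per pair they are up to 3 genes apart each way, those whose interval bound nearest 1 lay farthest from 1, which need not be the most extreme ratios. Per term they are the 3 smallest p, and per other list the 4 with the widest range. Alternatives were DESeq2 1.42.0, its size factors, no count filter, TMM from protein-coding genes, removal of GC and length trends, a prior count of 2, a cut of 1.5 times, and leaving out libraries.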

Additional observations from a re-analysis of the deposited data

Results flagged for a closer look

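TK1, the thymidine salvage kinase, was lower with caffeine on one background and higher on the other. Its log2 ratio was -1.09 for caffeine against the control and 2.04 for acetaminophen with caffeine against acetaminophen, and it was apart in both pairs, which share no library. With GC and length trends removed it was apart in neither, at -0.75 and 0.72. The levels were 81.3, 38.2, 52.8 and 219 CPM in the control, caffeine, acetaminophen and combined libraries. The edgeR term for the combination, which tests this difference, had a log2 fold change of 2.34 at an adjusted p of 1, so the difference did not pass.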

How the results depend on the processing

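Every count rests on 1 library per condition, and the control and the library of acetaminophen with exosomes are the shallowest, so a difference under about 2 times in a scarce gene is not detectable there. No paired analysis was possible because each condition has 1 library and the labels carry no replicate numbers. Whichever library was left out, 0 of the 40 genes were called for each additive term (edgeR). No single gene that was apart changed direction under these alternatives. With GC and length trends removed, the median log2 ratio of the 40 genes for acetaminophen with exosomes against exosomes went from 0.03 to -0.05, and medians of some role groups also changed sign, as for the helicase activators with acetaminophen against control (0.28 to -0.21). With GC and length trends removed, 1 gene (MCM7) was called for arsenic. On the same setting the genes apart were 3 lower for acetaminophen against control, 1 higher for acetaminophen with exosomes against acetaminophen, 1 higher for acetaminophen with caffeine against acetaminophen, 3 higher for arsenic 5 µM against control, 0 higher for arsenic with copper against control and 2 higher for arsenic 15 against 5 µM. At a cut of 1.5 times there were 16 higher and 9 lower for acetaminophen against control, 4 and 3 for acetaminophen with exosomes against exosomes, 11 higher and 5 lower for acetaminophen with caffeine against caffeine, 4 higher for exosomes against control, 11 lower for acetaminophen with exosomes against acetaminophen, 18 lower for caffeine against control, 8 higher for acetaminophen with caffeine against acetaminophen, 2 higher and 13 lower for arsenic with copper against control, and 16 higher and 8 lower for arsenic with copper against arsenic 5 µM, a wider cut that can only add genes. With DESeq2 size factors, 1 gene was higher for acetaminophen with exosomes against exosomes, 14 were lower for caffeine against control, and 0 were higher and 8 lower for arsenic with copper against control. Without a count filter these were 1 (acetaminophen with exosomes) and 0 and 7 (arsenic with copper). With TMM from protein-coding genes they were 1, 11 lower for caffeine, 0 and 7, and 2 were higher for arsenic 15 against 5 µM. The cause of these shifts was not tested. Shares of all genes are given only for the main setting and with the trends removed. Counts at the 1.5 times cut and with the other scalings thus have no such share beside them. Of 145 single values of genes apart, 39 lost that standing with the trends removed, 5 with DESeq2 size factors, 6 with protein-coding TMM, 6 without a filter and 1 with a prior count of 2.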
